A study of Rattus norvegicus with 49 samples.

Results

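G1 cyclins and kinase inhibitors were read as 9 genes of the step that takes a cell from G1 into DNA synthesis: the D-type cyclins Ccnd1, Ccnd2 and Ccnd3, the kinases Cdk4 and Cdk2, the inhibitors Cdkn1b and Cdkn2c, the brake Rb1 and the growth regulator Myc. The members were the probe sets that the platform annotation assigns to exactly 1 of these symbols. They numbered 14 of the 31042 probe sets tested and 9 of 14217 genes. Ccnd1 had 3 probe sets, Cdk2, Cdkn1b and Cdkn2c had 2 each, and the other genes had 1.

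D-type cyclins are made when growth factors act on a cell, and they switch on Cdk4 and its close relative Cdk6. These kinases phosphorylate the RB1 protein, which then lets go of the E2F factors that drive genes of DNA synthesis, and Cdk2 with its E-type cyclins completes the step. Cdkn2c (p18) binds the D-cyclin kinases and Cdkn1b (p27) holds back Cdk2, while MYC raises transcription of growth genes. Most hepatocytes and tubule cells of an adult rat rest outside the cycle, and in rodent liver Ccnd1 is known for its induction when hepatocytes re-enter it, for example after part of the liver is removed.

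Male rats of the Harlan Sprague Dawley stock were dosed with propylene glycol phenyl ether, a glycol ether solvent abbreviated PPH, by stomach tube once on each of 5 days in a row and were killed on the day after the last dose. They were 6 to 8 weeks old when assigned to groups, were housed 5 to a cage and received 5 mL/kg of corn oil at every dose, so that the 0 mg/kg animals had the oil alone. Liver arrays numbered 4 at each of 1, 10, 100, 500 and 1000 mg/kg and 5 at 0 mg/kg. Kidney arrays numbered the same except for 3 at 500 mg/kg, which gave 25 liver and 24 kidney arrays. Animals given 2000 mg/kg did not complete dosing and gave no tissue. The labels' treatment text names another compound, MCHM, while the title and the labels of every sample name PPH, which is used here.

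Values are log2 expression levels per probe set. Array medians lay at 5.21 to 5.31 in liver and 5.33 to 5.37 in kidney, and within an organ the lowest correlation between arrays, taken across probe sets, was 0.985. Alb, the albumin gene of hepatocytes, read 14.51 to 14.72 in liver arrays and 3.59 to 6.84 in kidney arrays. Slc34a1, a phosphate carrier of the proximal tubule, read 4.10 to 5.68 in liver arrays and 13.27 to 13.81 in kidney arrays, so both organs matched their labels. A probe set was called where its limma p, adjusted by Benjamini-Hochberg over all 31042 probe sets, was under 0.05. Precision is limited by how many arrays each group holds. In whole tissue, fewer cells of a type and less RNA per cell cannot be told apart.

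In liver at 1000 mg/kg, Ccnd1 fell on all 3 of its probe sets and no other member passed the test. Its level was 0.326 to 0.395 times that of the controls, and each treated array lay below each control array. Each probe set of the other D-type cyclins, both kinases, both inhibitors, Rb1 and Myc had an interval that included no change. The mean of the 2 Cdkn1b probe sets, an average chosen after seeing the data, had an interval that excluded no change but missed the call. Of these 2 probe sets, 1369192_at read below the array medians. The 3 calls belong to 1 gene, Ccnd1. Over all probe sets 0.3% were called in this comparison, 0.0741% as lower and 0.226% as higher.

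Ccnd1 encodes cyclin D1 and lies on chromosome 1 at chr1:209518288-209527986 of the GRCr8 build. On probe set 1383075_at the liver arrays at 1000 mg/kg read 8.04, 7.74, 8.31 and 7.95, against 9.92, 10.16, 8.91, 9.39 and 9.76 at 0 mg/kg. The highest treated array was thus below the lowest control, control replicate 3. The groups averaged 8.01 ± 0.23 (SD, n = 4) at 1000 mg/kg and 9.63 ± 0.49 (SD, n = 5) at 0 mg/kg, a log2 change of -1.62 (SE 0.25, 95% interval -2.13 to -1.10, limma adjusted p = 0.0025).

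Probe set 1371643_at read 8.27, 8.18, 8.39 and 8.15 at 1000 mg/kg, against 9.72, 10.33, 8.98, 9.60 and 9.79 at 0 mg/kg. Its log2 change was -1.44 (SE 0.20, 95% interval -1.86 to -1.02, limma adjusted p = 0.000924). Probe set 1371150_at read 6.87, 6.87, 7.06 and 6.80 at 1000 mg/kg, against 8.43, 8.86, 7.55, 8.03 and 8.33 at 0 mg/kg. The groups did not overlap on either probe set, and control replicate 3 was again the lowest control. The log2 change on 1371150_at was -1.34 (SE 0.22, 95% interval -1.80 to -0.88, limma adjusted p = 0.00573). Among all probe sets, 1.43% had every 1000 mg/kg liver array below every control, and no member probe set of another gene did so. The spread between treated arrays was small beside that of the controls, with SDs of 0.11 and 0.49 on 1371150_at.

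The 3 Ccnd1 probe sets were designed on 3 different transcript sequences and moved together from array to array. Their pairwise Pearson r over the 25 liver arrays was 0.954 to 0.975, and over the 24 kidney arrays 0.885 to 0.959. The arrays share dose groups, so these values describe how well the probe sets track each other and carry no test. The mean of the 3 changed by -1.47 in liver at 1000 mg/kg (95% interval -1.92 to -1.01, limma adjusted p = 0.00113 over 14217 genes).

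**Figure D1:**
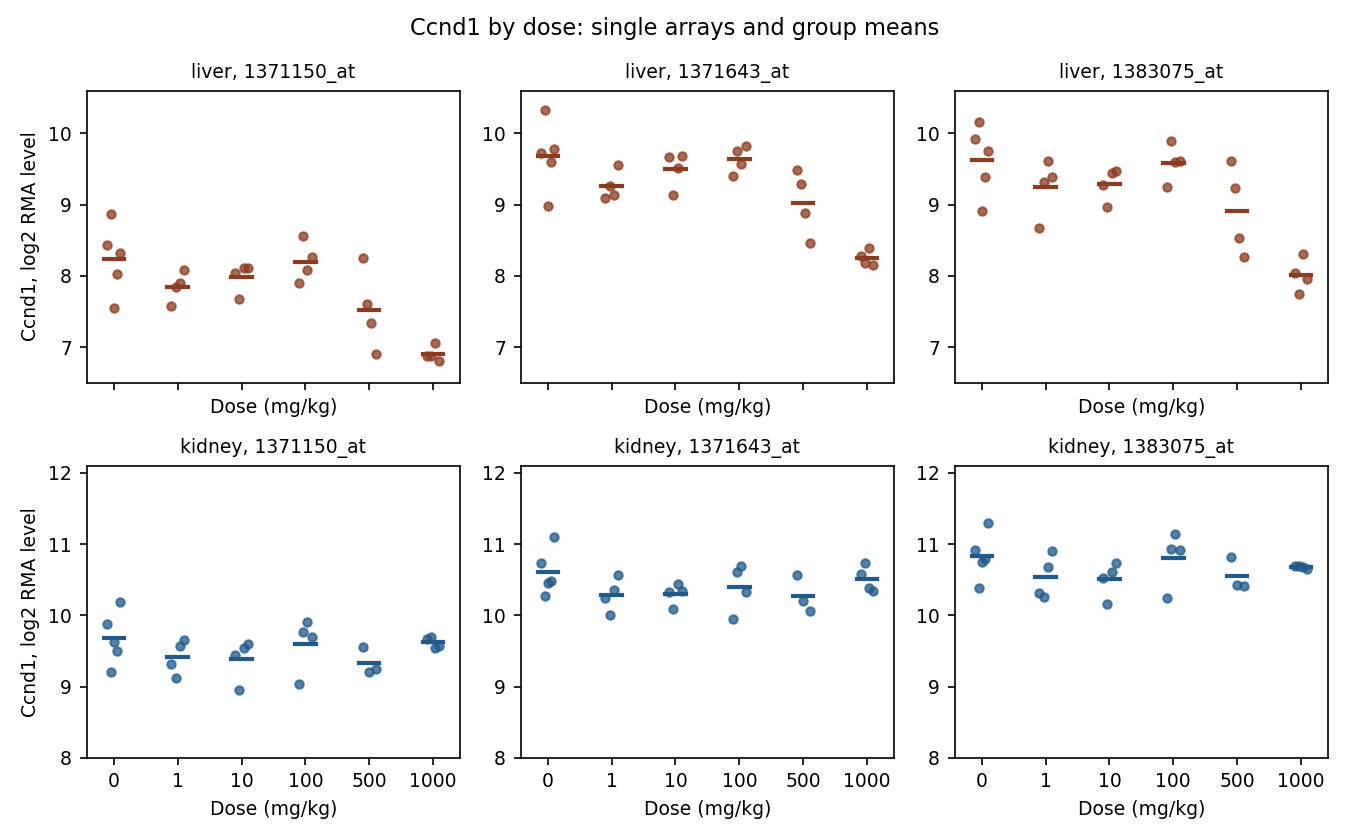
Log2 level of Ccnd1 in each array (points) with the group mean (bar) by dose in mg/kg, for the 3 probe sets, with liver above and kidney below on separate scales. In liver the 1000 mg/kg means are lowest. On 1383075_at the arrays of that dose read 7.74 to 8.31, against 8.91 to 10.16 at 0 mg/kg. The 500 mg/kg arrays read 8.26 to 9.61 there and reach into both ranges, while in kidney the groups overlap.

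Across the liver doses the 3 probe sets ranked the group means in the same order. On 1383075_at the means were 9.63 at 0, 9.25 at 1, 9.29 at 10, 9.59 at 100, 8.91 at 500 and 8.01 at 1000 mg/kg, with SDs of 0.23 to 0.62. From high to low the order was 0, 100, 10, 1, 500 and 1000 mg/kg, and arrays of neighbouring groups overlapped at every step, except that on 1371643_at the 1000 mg/kg arrays all lay below those at 500 mg/kg. No step from 1 to 100 mg/kg passed the test against 0 mg/kg: 0 members were called at each of these doses, where 0%, 0.00322% and 0% of all probe sets were called at 1, 10 and 100 mg/kg. An unadjusted limma p under 0.05 was reached by 1 of 14 members at 1 mg/kg (Ccnd1 on 1371643_at, log2 difference -0.42), 1 at 10 mg/kg (Cdkn1b on 1369192_at, 0.42) and 0 at 100 mg/kg, against 7.82%, 7.58% and 7.53% of all probe sets.

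At 500 mg/kg the Ccnd1 arrays were the most spread of any liver dose on 1383075_at. They read 9.61, 9.23, 8.53 and 8.26, so that 2 arrays fell within the control range and 2 lay below it. On 1371643_at they read 9.49, 9.29, 8.88 and 8.46, and on 1371150_at 8.25, 7.61, 7.34 and 6.90. Replicates 3 and 4 were the low ones on all 3 probe sets. The log2 changes against 0 mg/kg were -0.72, -0.66 and -0.72 on 1371150_at, 1371643_at and 1383075_at, with limma adjusted p of 0.353, 0.353 and 0.414, and no member was called at this dose, where 0.0129% of all probe sets were. Counting unadjusted p-values under 0.05, limma gave 4 of 14 members at 500 mg/kg, the 3 of Ccnd1 and Cdk2 on 1378874_at, against 8.29% of all probe sets.

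The change between the highest doses was not resolved. Set against 500 mg/kg, Ccnd1 at 1000 mg/kg had log2 differences of -0.62, -0.78 and -0.90 on 1371150_at, 1371643_at and 1383075_at (95% interval on 1383075_at -1.44 to -0.36, limma adjusted p = 0.607). No probe set of any gene was called (0%), and limma gave 1634 probe sets with an unadjusted p under 0.05, or 5.26%, 3 of them of Ccnd1.

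The same 1000 mg/kg arrays also differed from the 12 low-dose arrays, which are not the controls. Against the mean of 1, 10 and 100 mg/kg, 3 member probe sets were called lower, all of Ccnd1, where 0.19% of all probe sets were called, 0.103% as lower and 0.087% as higher. The log2 differences were -1.11, -1.22 and -1.36 on 1371150_at, 1371643_at and 1383075_at, with limma adjusted p of 0.0123, 0.00133 and 0.00403. Without liver 1000 mg/kg replicate 2 the adjusted p of 1371150_at was 0.0586. A trend over the 6 dose ranks called the same 3 member probe sets, where 0.232% of all were called and 0.0644% as lower. The slopes of Ccnd1 were -0.21, -0.22 and -0.25 log2 units per rank (limma adjusted p = 0.043, 0.0391 and 0.0424), although the means above do not step down evenly.

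The trend calls rested on single arrays. Leaving out 1 liver array changed the count of 3 in 15 of 25 cases, to 0 when the array left out was control replicate 1, 2, 4 or 5, replicate 4 at 1 mg/kg, replicate 3 at 10 mg/kg, replicate 4 at 500 mg/kg or any array at 1000 mg/kg. The count was 1 when it was replicate 2 or 3 at 1 mg/kg, replicate 4 at 10 mg/kg or replicate 3 at 500 mg/kg. The Ccnd1 slope on 1383075_at stayed between -0.28 and -0.22 in these fits, with a limma adjusted p of 0.0187 to 0.138.

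**Figure D2:**
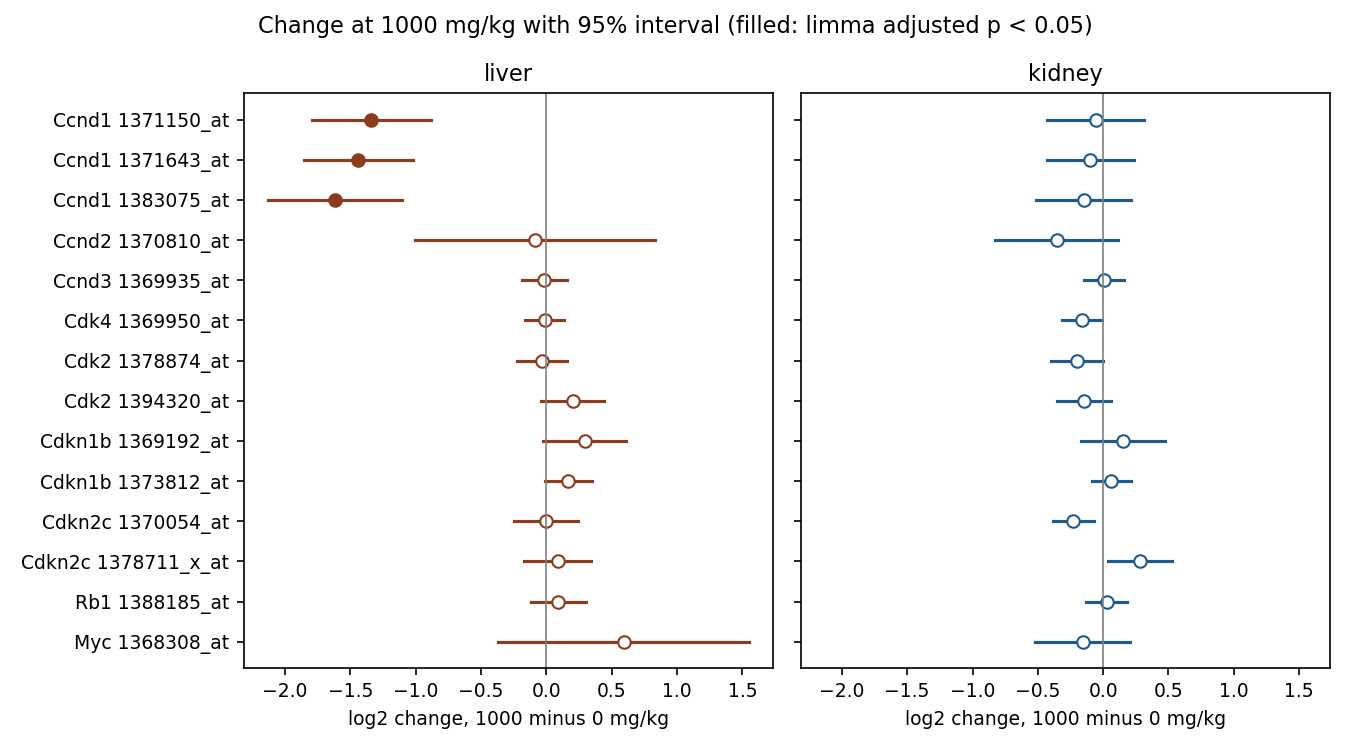
Log2 change at 1000 mg/kg minus 0 mg/kg (points) with its 95% interval (lines) for the 14 member probe sets in liver (left) and kidney (right), filled where the limma adjusted p was under 0.05. Only the 3 Ccnd1 probe sets in liver are filled, at -1.34, -1.44 and -1.62, and the widest intervals are those of Ccnd2 and Myc in liver.

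Ccnd2 encodes cyclin D2 and lies at chr4:161653048-161675422 (GRCr8). Its liver arrays read 6.35, 7.33, 6.80 and 7.57 at 1000 mg/kg, against 6.68, 7.89, 7.75, 5.71 and 7.46 at 0 mg/kg. The groups overlapped, with 1 low control, replicate 4. The log2 difference was -0.09 (95% interval -1.01 to 0.83, limma adjusted p = 0.98), so that a clear fall and a clear rise both lie inside this interval. At 500 mg/kg the arrays read 6.37, 6.26, 5.44 and 7.24, a log2 difference of -0.77 from 0 mg/kg (95% interval -1.69 to 0.15, limma adjusted p = 0.666). Over all 25 liver arrays Ccnd2 ranged from 5.44 to 7.89 with a within-group SD of 0.74, one of the largest spreads among the members.

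Ccnd3 encodes cyclin D3 and lies at chr9:20891696-20987199 (GRCr8). Its liver arrays read 7.52, 7.27, 7.49 and 7.30 at 1000 mg/kg, against 7.37, 7.28, 7.46, 7.53 and 7.42 at 0 mg/kg, and the groups covered the same range. The log2 difference was -0.02 (95% interval -0.19 to 0.15, limma adjusted p = 0.979), and over all liver arrays the gene stayed between 7.16 and 7.53. Among the D-type cyclins the intervals on all Ccnd1 probe sets thus lay wholly below that for Ccnd3, while the interval for Ccnd2 overlapped that for Ccnd3 and, of the Ccnd1 probe sets, that for 1371150_at.

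The kinases showed small differences in liver. Cdk4, the D-cyclin partner at chr7:64771453-64774891, read 8.67, 8.66, 8.90 and 8.73 at 1000 mg/kg, against 8.74, 8.83, 8.71, 8.73 and 8.77 at 0 mg/kg. Its log2 difference was -0.01 (95% interval -0.16 to 0.13, limma adjusted p = 0.98), and its within-group SD of 0.0836 was the smallest of the 14 probe sets in liver. Cdk2, which acts after Cdk4 and lies at chr7:1714392-1721964, gave -0.03 on 1378874_at (95% interval -0.23 to 0.16) and 0.20 on 1394320_at (95% interval -0.04 to 0.44), with limma adjusted p of 0.952 and 0.641. Its 2 probe sets tracked each other weakly, with r = 0.149 over 25 liver arrays.

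The inhibitors had positive differences on 3 of 4 probe sets, none of them called. Cdkn1b lies at chr4:169491273-169496500, and its probe set 1373812_at read 9.61, 9.79, 9.57 and 9.59 in liver at 1000 mg/kg, against 9.40, 9.57, 9.41, 9.40 and 9.60 at 0 mg/kg. The groups overlapped at 9.57 to 9.60. The log2 difference was 0.17 (95% interval -0.01 to 0.35, limma adjusted p = 0.581). Against the mean of 1, 10 and 100 mg/kg it was 0.22, with an unadjusted p of 0.00838 and a limma adjusted p of 0.415. The other Cdkn1b probe set, 1369192_at, gave 0.29 at 1000 against 0 mg/kg (95% interval -0.03 to 0.61). Its liver means of 4.27 at 0 and 4.56 at 1000 mg/kg lay below the array medians of 5.21 to 5.31. The 2 probe sets had an r of -0.0112 over the liver arrays. Their mean for Cdkn1b differed by 0.23 at 1000 against 0 mg/kg, with a 95% interval of 0.04 to 0.42 that excludes no change. For this mean the limma p was 0.0215 unadjusted and 0.293 adjusted over 14217 genes. Against the mean of 1, 10 and 100 mg/kg it differed by 0.12 (95% interval -0.04 to 0.29, limma adjusted p = 0.72).

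Cdkn2c lies at chr5:129639736-129645564. It gave log2 differences of 0.00 on 1370054_at (95% interval -0.25 to 0.24) and 0.09 on 1378711_x_at (95% interval -0.17 to 0.34) in liver at 1000 mg/kg, with limma adjusted p of 0.996 and 0.894. The suffix _x_at marks probe sets with probes that may also bind other transcripts, so the values of 1378711_x_at are uncertain. Rb1 at chr15:54780858-54911989 read 8.05, 7.83, 8.08 and 8.15 at 1000 mg/kg, against 7.73, 8.07, 7.82, 8.07 and 8.01 at 0 mg/kg. These overlapped, and the log2 difference was 0.09 (95% interval -0.12 to 0.30, limma adjusted p = 0.857).

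Myc lies at chr7:95483105-95488031 and was the most variable member in liver. It read 8.05, 8.80, 7.94 and 7.95 at 1000 mg/kg, against 7.58, 7.40, 6.99, 8.17 and 7.85 at 0 mg/kg. The groups overlapped through control replicate 4. The log2 difference was 0.59 (95% interval -0.37 to 1.55, limma adjusted p = 0.762), which leaves both no change and a rise to more than 2 times the control level inside the interval. At 500 mg/kg its arrays read 8.63, 8.59, 6.45 and 7.40, and over all liver arrays it ranged from 6.20 to 9.24 with a within-group SD of 0.77. In kidney the same probe set had a within-group SD of 0.286. Its kidney group means of 5.62 to 5.80 lay near the kidney array medians of 5.33 to 5.37, where levels hold an unknown share of background.

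**Figure D3:**
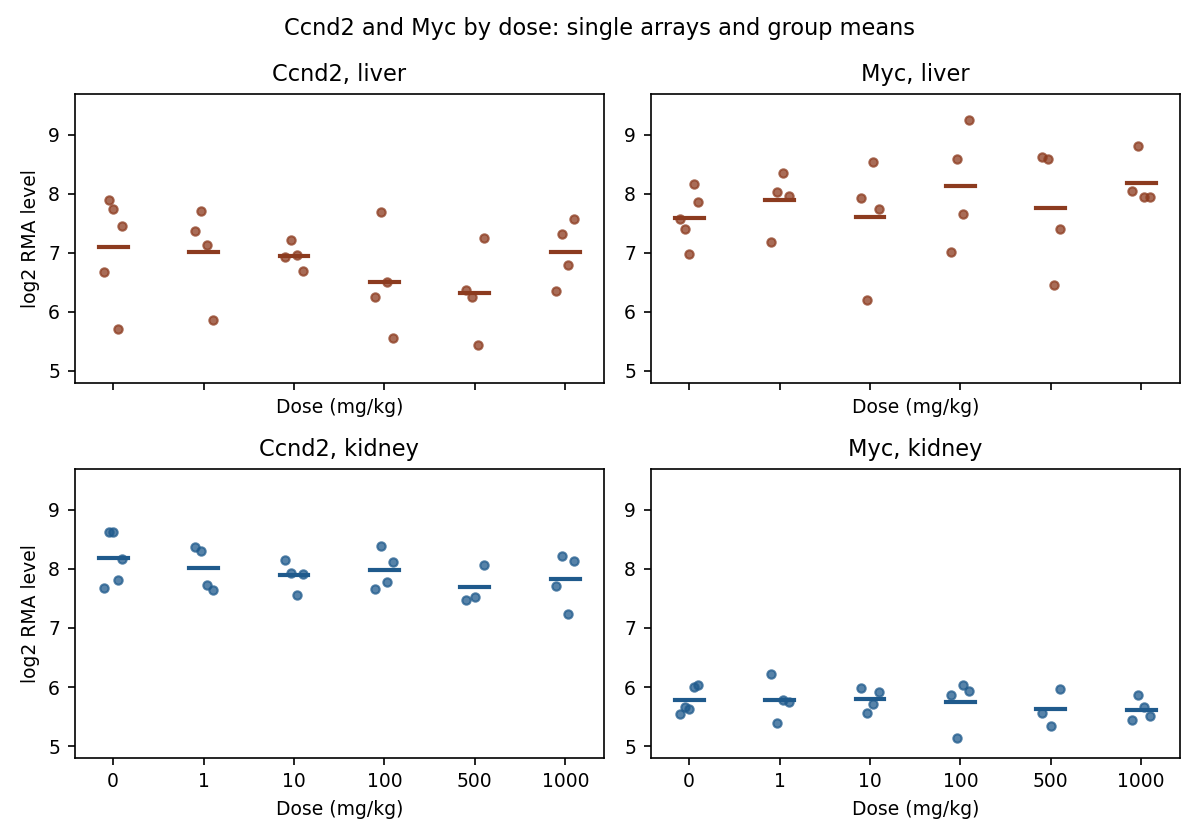
Log2 level of Ccnd2 (left) and Myc (right) in each array (points) with the group mean (bar) by dose in mg/kg, in liver above and kidney below. Over all liver arrays Ccnd2 spans 5.44 to 7.89 and Myc 6.20 to 9.24, with the liver 10 mg/kg arrays of Ccnd2 close together at 6.69 to 7.22, and over all kidney arrays they span 7.23 to 8.63 and 5.13 to 6.22.

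Cdk4 is reported as a direct target of MYC in human cells, through CACGTG boxes that MYC binds together with MAX. Sequences of 250 bases before a RefSeq start were matched for 6 of the 9 members (Ccnd3, Cdk4, Cdk2, Cdkn1b, Cdkn2c and Rb1). Of these windows only that of Cdk4 ended where the annotated gene begins. Those of Ccnd3 and Cdkn2c lay wholly inside the gene and those of Cdk2, Cdkn1b and Rb1 partly inside it, so they are not read as upstream of the gene. The Cdk4 sequence, the only one of the 6 with the box, comes from RefSeq (GRCr8), spans chr7:64771203-64771452 on the + strand and ends at the base before the gene's start, with CACGTG in capitals.
Cdk4: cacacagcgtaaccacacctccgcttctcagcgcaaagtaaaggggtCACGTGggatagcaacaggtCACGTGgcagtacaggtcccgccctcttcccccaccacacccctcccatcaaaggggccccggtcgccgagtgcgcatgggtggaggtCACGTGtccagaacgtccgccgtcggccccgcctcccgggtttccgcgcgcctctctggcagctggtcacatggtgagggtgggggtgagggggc
The letters CACGTG are their own reverse complement, and their first bases stood at -203, -183 and -95 from the start. Of 33469 such windows of this length, which were not checked against the extent of each gene, 1872 (5.59%) held the letters at least once and 17 (0.0508%) held them 3 or more times. A match of letters is a description and not a site, and any bearing of Myc on Cdk4 levels here was not tested.

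Other genes of the pathway were read through lists with 1 probe set per gene, the one with the highest mean. In liver at 1000 against 0 mg/kg, no gene was called among 7 other G1 cyclins, kinases and activators, 5 other inhibitors, 11 pocket proteins and E2F factors, 7 ubiquitin ligase parts that act on G1 proteins, or 10 genes of the MYC and MAX network. Their median log2 changes were 0.08, 0.05, 0.06, 0.10 and 0.02, beside 0.02 for all genes. The smallest p-values there belonged to Cdkn2b, the p15 inhibitor (0.31, limma adjusted p = 0.282), Skp1, a scaffold of the SCF ligase (0.21, limma adjusted p = 0.244), and Fbxo31, an F-box protein (0.24, limma adjusted p = 0.288).

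Apart from the G2 and mitosis genes given below, lists of signals that act before or after the G1 step also held no called gene in liver. Of 14 genes that answer growth factor and MAP kinase signals 0 were called and 10 were negative (median -0.09), of 8 beta-catenin targets 0 were called (median -0.03), and of 15 MYC targets of ribosome making 0 were called (median 0.03). Spry1, which damps receptor tyrosine kinase signals, was lowest in p of the first list at -0.24 (limma adjusted p = 0.711), and Tbx3, a beta-catenin target in liver, of the next at 0.73 (limma adjusted p = 0.284). Of 16 S-phase genes under E2F, 0 were called (median -0.03), led by Fen1, a nuclease of lagging-strand synthesis, at -0.28 (limma adjusted p = 0.528).

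Of 17 genes of G2 and mitosis, 1 was called in the same livers, where 0.0741% of all probe sets were called lower. Cdk1, the kinase of mitotic entry, fell to 4.13 ± 0.30 (SD, n = 4) at 1000 mg/kg, against 6.10 ± 0.23 (SD, n = 5) at 0 mg/kg (log2 change -1.98, limma adjusted p = 0.00856). In all, 16 of 17 differences were negative, with a median of -0.54, beside a median of 6.5e-05 for all probe sets. The share of negative differences over all genes was not counted, here or for the other lists. Cdkn3, a phosphatase of cyclin-dependent kinases, and Ccna2, cyclin A2, chosen after their values were seen, had differences of -2.16 and -1.76 (limma adjusted p = 0.0613 and 0.0871). The mean level of the 17 genes was 4.63 to 4.70 at 1000 mg/kg and 5.21 to 5.70 at 0 mg/kg, so these did not overlap either. How often means of other gene sets fail to overlap was not counted. The 1000 mg/kg means lay below the liver array medians of 5.21 to 5.31, where levels hold an unknown share of background.

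Markers of cell types were set beside the fall of Ccnd1 in liver. The mean of 6 hepatocyte markers was 13.04 to 13.25 at 1000 mg/kg and 13.10 to 13.41 at 0 mg/kg, and the mean of 10 macrophage markers was 8.86 to 9.07 at 1000 mg/kg and 8.97 to 9.25 at 0 mg/kg. Of the 10 macrophage markers 9 had negative differences. Means of 10 lymphocyte markers were 4.94 to 5.09 at 1000 mg/kg and 5.03 to 5.13 at 0 mg/kg, and those of 8 endothelial, 8 fibroblast, 7 adipocyte and 3 bile duct markers overlapped between the groups. No marker was called, and the part of cell composition in the Ccnd1 result was not tested.

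In kidney no member passed the test at any dose. At 1000 against 0 mg/kg 0 of 14 were called, where 0.615% of all probe sets were. The median member change was -0.12, beside -0.003 for all probe sets. Limma gave 3 of 14 members an unadjusted p under 0.05, against 10.2% of all probe sets. At 1, 10, 100 and 500 mg/kg 0 members were called, where 0%, 0%, 0% and 0.00322% of all probe sets were. The comparison of 1000 with 500 mg/kg called 0% of probe sets, the comparison of 1000 mg/kg with the mean of 1, 10 and 100 mg/kg called 0.412% (0.0934% as higher) and no member, and the trend called 0.58% (0.448% as lower) and no member. An unadjusted limma p under 0.05 at 1, 10, 100 and 500 mg/kg was reached by 0, 1, 1 and 1 members, against 2.99%, 5.99%, 6.35% and 4.61% of all probe sets. The means over 7 adipocyte markers reached 6.46 in a control and 7.17 at 500 mg/kg, against 5.17 to 5.47 at 1000 mg/kg. Leaving out the 7 kidney arrays high in these markers gave 0 member calls as well.

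Kidney Ccnd1 on 1383075_at read 10.70, 10.69, 10.68 and 10.65 at 1000 mg/kg, against 10.92, 10.38, 10.74, 10.79 and 11.30 at 0 mg/kg. The treated arrays were nearly equal and lay inside the control range. The log2 differences on 1371150_at, 1371643_at and 1383075_at were -0.06, -0.10 and -0.15, with 95% intervals of -0.43 to 0.32, -0.43 to 0.24 and -0.51 to 0.21 (limma adjusted p = 0.959, 0.912 and 0.86). Group means on 1383075_at ran 10.83 at 0, 10.54 at 1, 10.51 at 10, 10.80 at 100, 10.55 at 500 and 10.68 at 1000 mg/kg, and arrays of all groups overlapped.

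The other kidney members with low unadjusted p-values were Cdkn2c and Cdk4. Cdkn2c on 1370054_at read 8.22, 8.10, 8.04 and 8.06 at 1000 mg/kg, against 8.15, 8.44, 8.36, 8.38 and 8.35 at 0 mg/kg. The groups overlapped only through control replicate 1. The log2 difference was -0.23 (95% interval -0.39 to -0.07, limma adjusted p = 0.243), and its group means stepped down at each dose from 8.33 at 0 over 8.25, 8.24, 8.18 and 8.14 to 8.11 at 1000 mg/kg (trend -0.04 per rank, limma adjusted p = 0.131). The other Cdkn2c probe set, 1378711_x_at, had the opposite sign at 1000 mg/kg, 0.28 (95% interval 0.04 to 0.53, limma adjusted p = 0.4). Its means of 5.27 at 0 and 5.56 at 1000 mg/kg lay near the kidney array medians of 5.33 to 5.37, and its probes may bind other transcripts. The 2 probe sets thus disagree on this gene, and the values of 1378711_x_at are the less certain. Cdk4 read 8.79, 8.99, 8.86 and 8.93 at 1000 mg/kg, against 8.96, 9.09, 9.11, 9.11 and 8.98 at 0 mg/kg, a log2 difference of -0.16 (95% interval -0.31 to -0.01, limma adjusted p = 0.461).

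The remaining kidney members had intervals that included no change at 1000 mg/kg. Ccnd2 gave -0.36 (95% interval -0.83 to 0.12), Myc -0.16 (95% interval -0.52 to 0.21), Cdk2 -0.20 and -0.15, Cdkn1b 0.15 and 0.06, Rb1 0.03 and Ccnd3 0.01, with limma adjusted p from 0.496 to 0.989. Among these, Ccnd2 was the widest in spread, at 7.23 to 8.63 over the 24 arrays.

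For the stages after G1, 14 of 17 mitosis genes and 3 of 16 S-phase genes were called lower in kidney at 1000 against 0 mg/kg. Over all probe sets 0.419% were called lower in this comparison. The 17 mitosis genes had a median log2 change of -1.33, and those called included Cks2, a subunit that binds cyclin-dependent kinases (-1.38, limma adjusted p = 2.65e-05), Ccna2 (-1.97, limma adjusted p = 2.65e-05), and Mki67, a marker of cycling cells (-1.54, limma adjusted p = 3.42e-05). All 16 S-phase genes had negative differences (median -0.29), and those called were Mcm4 and Mcm6, parts of the replicative helicase (-0.53 and -0.62, limma adjusted p = 0.00171 and 0.00566), and Pcna, the polymerase clamp (-0.32, limma adjusted p = 0.00443). No gene of the G1 lists was called, and their difference from the later stages was not tested. The smallest p-values there belonged to E2f1 (-0.39, limma adjusted p = 0.169), Cdkn2d (-0.32, limma adjusted p = 0.23) and Cdkn1a (-0.37, limma adjusted p = 0.237). Of the kidney cell markers, the macrophage gene Adgre1 was called lower (-0.80, limma adjusted p = 0.0358), the mean of 10 macrophage markers was 6.42 to 6.59 at 1000 mg/kg and 6.66 to 6.81 at 0 mg/kg, and 8 of 8 fibroblast markers were negative. The part of these cells in the falls of cycle genes was not tested. In kidney, too, the share of negative differences over all genes was not counted.

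**Figure D4:**
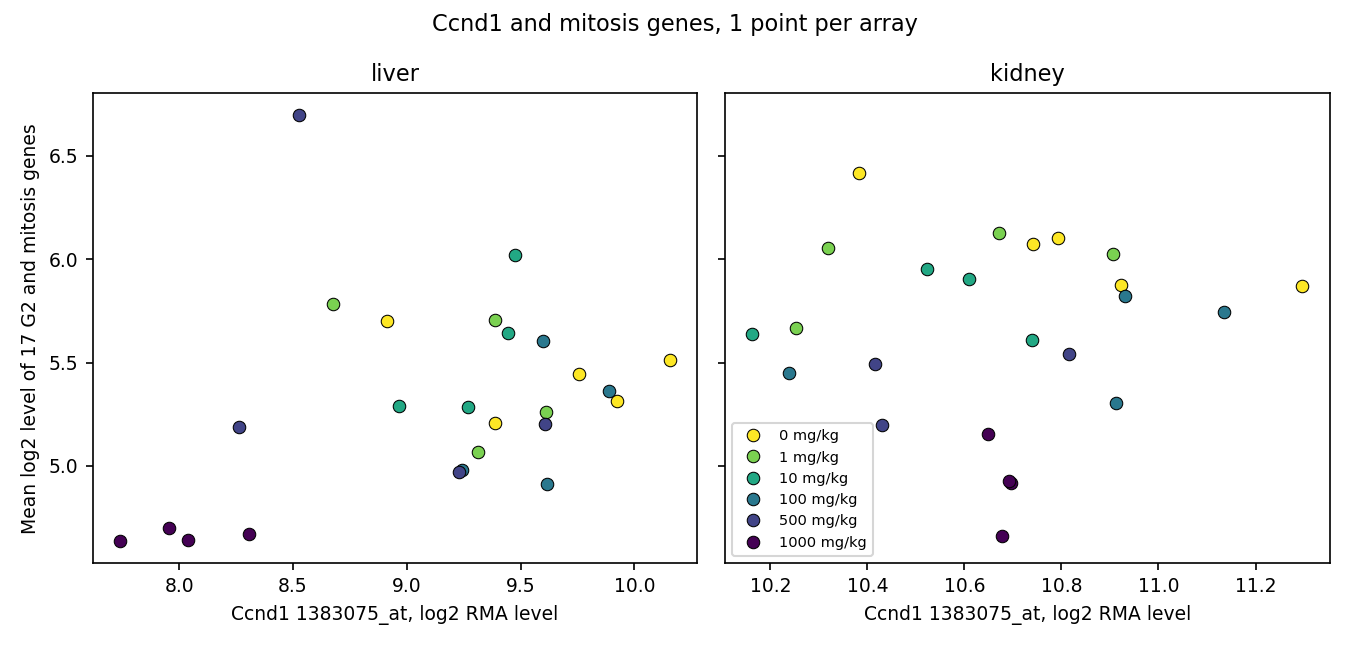
Mean log2 level of 17 G2 and mitosis genes against the log2 level of Ccnd1 on 1383075_at, 1 point per array coloured by dose in mg/kg, in liver (left) and kidney (right). The 4 liver arrays at 1000 mg/kg are low on both axes, at 4.63 to 4.70 and 7.74 to 8.31, while the 4 kidney arrays at 1000 mg/kg are low on the mitosis axis, at 4.66 to 5.15, and within the range of the other groups for Ccnd1.

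The liver array with the highest mitosis mean, 500 mg/kg replicate 3 at 6.70, had a Ccnd1 level of 8.53 on 1383075_at, below every control. The other 3 arrays of that dose had mitosis means of 4.97 to 5.20 and Ccnd1 levels of 9.61, 9.23 and 8.26. Replicates 3 and 4 of this dose were both low in Ccnd1, and replicate 3 alone stood high in mitosis genes.

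The difference between the organs was tested directly, as the liver change minus the kidney change at 1000 mg/kg. Ccnd1 changed more in liver on 2 of its 3 probe sets, where 0.18% of all probe sets were called and 0.0741% as lower. The differences were -1.34 on 1371643_at (95% interval -1.88 to -0.80, limma adjusted p = 0.0178) and -1.47 on 1383075_at (95% interval -2.11 to -0.83, limma adjusted p = 0.0344). On 1371150_at it was -1.28 (95% interval -1.88 to -0.68, limma adjusted p = 0.051). No other member was called, the nearest being Cdk2 on 1394320_at at 0.35 (95% interval 0.03 to 0.66, limma adjusted p = 0.504). Myc gave 0.74 with an interval from -0.31 to 1.80. Of the 17 mitosis genes 1, Cks2, was called (1.48, limma adjusted p = 0.000172), with the liver change less negative than that of kidney.

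The count for Ccnd1 in this comparison depended on which arrays entered. The count was 0 when the model held only the 4 groups compared, with limma adjusted p of 0.1, 0.0855 and 0.141 on 1371643_at, 1383075_at and 1371150_at. It was also 0 without the kidney arrays high in adipocyte markers (0.058, 0.0826 and 0.111 in the same order) and without kidney 1000 mg/kg replicate 2. It was 1 when the array left out was kidney control replicate 2, 3 or 4, replicate 1 or 3 of kidney at 1000 mg/kg, liver control replicate 1 or 2, or replicate 2 or 4 of liver at 1000 mg/kg. It was 3 with brighter probe sets only, with quantile normalization, and with the replicate number as a block (fixed, or random together with dose), where 1371150_at had limma adjusted p of 0.0299 to 0.0458, and it was 2 or 3 without any other single array. The difference itself ranged from -1.65 to -1.34 on 1383075_at when any 1 of the 49 arrays was left out. The mean of the 3 probe sets gave -1.36 (limma adjusted p = 0.0147 over 14217 genes).

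Genes whose levels followed those of the cyclins and Myc most closely were found by Pearson r over the arrays of an organ, for the brightest probe set of each. For Ccnd1 in liver these were Nrcam, a cell adhesion gene (r = 0.776), Afp, the fetal serum protein alpha-fetoprotein (0.761), and Dgka, a diacylglycerol kinase (0.744), over 25 arrays. In kidney they were Nr1d1, a clock repressor (0.75), Krt18, a keratin of epithelia (0.703), and Hspb1, a small heat shock protein (0.70), over 24 arrays. No gene was among the nearest 3 in both organs. The Ccnd2 level ran closest to Gpatch8 (0.78), Bmpr2 (0.779) and Srrm2 (0.779) in liver and to Eftud2 (0.703), Mrln (0.695) and Ccdc13 (0.686) in kidney. Ccnd3 ran closest to Slc44a1 (0.771), Degs1 (0.749) and Nbeal2 (0.704) in liver and to Fem1c (0.72), Keap1 (0.658) and Xrcc1 (0.655) in kidney. Myc ran closest to Stard13 (0.784), Mpg (0.757) and Kdm7a (0.736) in liver and to Prpf39 (0.693), Cpsf6 (0.687) and Cbfb (0.684) in kidney. These arrays share dose groups and normalization, and the genes were picked for their r, so the values are descriptions without a test.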

How the data were processed

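Total RNA of each tissue sample was hybridized to 1 Affymetrix Rat Genome array, as the labels' protocols state. The authors deposited log2 levels per probe set, and per the submitters' processing notes they used RMA. The RMA version and whether the organs were normalized together are not given in the sources used here. Member levels were therefore compared within an organ only. Levels of Alb and Slc34a1 were set across organs only to check the organ labels. RMA brings arrays to a shared distribution, so a shift common to most genes may be lost. Detection calls were not used.

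Of 31099 probe sets, 57 controls were left out and 31042 tested. Of the 31042, 20826 had 1 gene symbol, 436 several and 9780 none, and probe sets with several or none were not named. For 20758 the symbol was looked up by Entrez identifier, which altered none. Groups came from the sample titles, which call the arrays of a group biological replicates. With limma 3.58.1 in R 4.3.3, a model with a mean for each dose group was fitted to all arrays of an organ, and to all 49 arrays for the organ difference. Calls used a Benjamini-Hochberg adjusted p under 0.05 over all probe sets. Contrasts against 0 mg/kg share the control arrays. The models were tested on simulated data.

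All members were named with every probe set. Of other lists, up to 4 called genes with the smallest p could be named, otherwise the 2 with the smallest p. Members and lists were chosen with earlier results of these data known, so they give no independent support. Alternatives were 1 probe set per gene, brighter probe sets only, quantile normalization, median centring of arrays, limma's variance trend with robust moderation, weights for arrays, blocks for the replicate number (fixed, or random together with dose), the groups of a contrast alone, and leaving out each array. Sequences before gene starts came from RefSeq (GRCr8), whose starts can lie inside the annotated gene.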

Additional observations from a re-analysis of the deposited data

Results flagged for a closer look

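Ccnd1 differed between the organs by a direct test. The liver change minus the kidney change at 1000 mg/kg was -1.34 on 1371643_at and -1.47 on 1383075_at (limma adjusted p = 0.0178 and 0.0344). No Ccnd1 probe set was called in the groups of the contrast alone or without the kidney arrays high in adipocyte markers.

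Single arrays stood apart from the others of their group in 5 of 154 combinations of a member probe set with a group of 4 or 5 arrays. Chance marks about 1 such combination in 20, a larger share than 5 of 154. The combinations share arrays, so they are not independent. Myc in liver at 1000 mg/kg read 8.80 in replicate 2, against 7.94 to 8.05 in the other 3. Ccnd3 in liver at 500 mg/kg read 7.53 in replicate 3, against 7.31 to 7.34, and this is the array with the highest mitosis mean. Cdk2 on 1394320_at read 5.73 in liver 10 mg/kg replicate 2, against 6.17 to 6.24, and 5.93 in liver 100 mg/kg replicate 2, against 6.17 to 6.20. Cdkn2c on 1378711_x_at read 5.30 in liver 1 mg/kg replicate 4, against 5.61 to 5.63.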

How the results depend on the processing

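The fall of Ccnd1 in liver at 1000 against 0 mg/kg was called on 3 probe sets in every alternative that kept all probe sets and without any 1 array, with limma adjusted p of 0.000503 to 0.0489 over the alternatives (highest in the groups of the contrast alone) and 8.00e-05 to 0.0247 over single arrays left out. With 1 probe set per gene, which leaves Ccnd1 a single probe set, the count was 1 at 1000 against 0 mg/kg, 1 at 1000 mg/kg against the mean of 1, 10 and 100 mg/kg, 1 for the trend and 1 for the organ difference. The trend count of 3 was 1 with a variance trend and robust moderation, 0 with the replicate block and 0 to 3 with 1 array left out. The organ count of 2 was 0 in the groups of the contrast alone, 0 without the kidney arrays high in adipocyte markers, 3 with brighter probe sets, quantile normalization or either replicate block (limma adjusted p of 1371150_at 0.0299 to 0.0458, against 0.051) and 0 to 3 with 1 array left out. Causes were not tested. No called value changed sign. Of 4017 comparisons of single uncalled values with an alternative, 130 changed sign. Leaving out the 7 kidney arrays high in adipocyte markers and averaging the probe sets of each gene were chosen after seeing the data.

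The main models treat all arrays as independent. Whether arrays with the same replicate number are paired was not settled. The median correlation of their deviations from the group means was 0.000507 between liver doses, 0.0609 between kidney doses and 0.0868 between liver and kidney of a dose, with 6 of 60, 22 of 55 and 9 of 24 over 0.1. For arrays of different replicate numbers the medians were -0.00384, -0.03 and -0.0296 in the same order. With the replicate number as a block, the member counts were 3 in liver at 1000 against 0 mg/kg, 3 against the mean of 1, 10 and 100 mg/kg, 0 for the liver trend, 0 in every kidney comparison and 3 for the organ difference.

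With 3 to 5 arrays per group, differences as wide as the intervals given for Ccnd2 and Myc in liver cannot be told from no change. Low levels hold an unknown share of background.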
